A study of Mus musculus with 2 samples.

Results

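The 10 genes described here encode proteins that neutrophils store in granules or hold in their cytosol, and they were read in mouse cells labelled as erythroid progenitors. The genes are a list of symbols, and the rule that picks them sets no threshold on their levels. They are the primary granule genes Mpo, Elane, Prtn3 and Ctsg, the specific granule genes Ltf, Camp, Ngp and Lcn2, and the calprotectin genes S100a8 and S100a9. All 10 were found by Ensembl identifier among the 43346 Ensembl gene rows of the series. Total RNA without most of its ribosomal RNA was sequenced from CFU-E cells (colony-forming unit erythroid, a committed progenitor of red cells). The animals were C57BL/6J males, 5 to 6 weeks old. The cells were primary, with no treatment, transgene or mutation named. The series holds 1 group of 2 libraries, replicate 1 and replicate 2, each made from 100 ng of RNA with the ScriptSeq kit. The labels give different biosamples and the same donor identifier for the 2 libraries, so part of their spread may be technical. The isolation protocol that the labels name starts from bone marrow, where neutrophil precursors are abundant, and the markers used to collect the cells were not used here.

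Neutrophils make their granules in a sequence. Primary (azurophil) granules, which carry myeloperoxidase and serine proteases, form in promyelocytes, specific granules form later in myelocytes and metamyelocytes, and the granule type into which a protein is sorted follows the stage at which its gene is active. S100A8 and S100A9 form the heterodimer calprotectin, a cytosolic protein that binds calcium, zinc and manganese and is among the most abundant proteins of mature neutrophils. CFU-E cells are on the branch that makes hemoglobin and are not known for granule synthesis. PU.1 (encoded by Spi1) and the C/EBP factors are transcription factors known to act on granule genes.

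The stretches in front of the gene starts are shown for the short motifs they hold, some of which occur in more than 1 class. The 250 bases before the RefSeq start (GRCm38.p6) of all 10 genes were searched on both strands for 4 motifs, which were chosen after the sequences were seen. AGGAAGT, a core letter string of ETS factors such as PU.1, was in the windows of 4 of 4 primary granule genes, 0 of 4 specific granule genes and 1 of 2 calprotectin genes (S100a8, on the opposite strand). Over all 32851 windows of the same length, 7.69% held it. TTNNGNAA, a loose C/EBP string, was in 0 of 4 primary granule windows, 3 of 4 specific granule windows (Ltf, Ngp and Lcn2) and 2 of 2 calprotectin windows, against 36.8% of all windows. TATAAA, the TATA box string, was in the windows of Ctsg and S100a8, against 12.4% of all. AGATAA, a string that factors of the erythroid GATA family bind, was in those of Ltf and S100a9, against 9.99% of all. None of the matches overlapped another. A match is a string of letters, and binding was not measured. For 4 primary granule, 2 specific granule and both calprotectin genes, 1 match each is shown with its flanks, 5′ to 3′ on the gene's strand, with the motif in capitals. Those of Ngp and S100a9 match TTNNGNAA when read on the opposite strand. None of the stretches overlaps an annotated exon, and that of Prtn3 lies within the annotated span of its gene. The RefSeq starts of Mpo, Elane, Prtn3, Ngp and S100a8 lie inside the first exon of an annotated transcript, which is Mpo-201 for Mpo. Part of each of these searched windows is therefore annotated exon. The TATAAA of S100a8 and the Ngp match nearest to its start lie in such exons. Mpo-203, which held 82.4% and 85.0% of Mpo counts, starts further on, at chr11:87794209, so the Mpo window is not directly in front of it.

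Mpo, chr11:87793541-87793579, plus strand, bases 223 to 217 before the start: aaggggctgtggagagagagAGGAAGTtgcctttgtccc
Elane, chr10:79886208-79886246, plus strand, bases 84 to 78 before the start: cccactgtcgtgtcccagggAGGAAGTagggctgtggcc
Prtn3, chr10:79879553-79879591, plus strand, bases 94 to 88 before the start: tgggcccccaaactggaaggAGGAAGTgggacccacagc
Ctsg, chr14:56102762-56102800, minus strand, bases 206 to 200 before the start: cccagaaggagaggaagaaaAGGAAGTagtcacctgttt
Ltf, chr9:111019197-111019236, plus strand, bases 75 to 68 before the start: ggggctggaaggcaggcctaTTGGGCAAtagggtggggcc
Ngp, chr9:110419650-110419689, plus strand, bases 138 to 131 before the start: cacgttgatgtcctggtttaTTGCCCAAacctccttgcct
S100a8, chr3:90668934-90668973, plus strand, bases 117 to 110 before the start: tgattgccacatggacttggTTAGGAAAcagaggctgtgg
S100a9, chr3:90695832-90695871, minus strand, bases 130 to 123 before the start: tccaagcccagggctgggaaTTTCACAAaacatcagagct

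All 10 genes were read in both libraries, with between 487 and 27278 expected counts each. Levels are given as TPM, an abundance per transcript that corrects for gene length, with replicate 1 before replicate 2, and means carry the SD over n = 2. In 9 of the 10 genes the level reached 10 TPM in each library, where 4.79% of the 21461 nuclear protein-coding genes were. All 10 reached 1 TPM in each, against 23.9% of those genes. Together the 10 genes took 0.994% of the nuclear protein-coding TPM in replicate 1 and 0.839% in replicate 2, or 0.337% and 0.288% of the nuclear protein-coding counts. In RNA from a cell population, a smaller number of cells of a type and less RNA per cell cannot be told apart, and the labels do not say which cells of the preparation held these transcripts.

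The libraries differed in scale, which touches every TPM below. The totals were 62576357 expected counts for replicate 1 and 36889517 for replicate 2. The share of TPM held by nuclear protein-coding genes was 12.4% for replicate 1 and 7.49% for replicate 2, while their share of counts was 46.2% and 46.6%. Over the 3384 of these genes that averaged at least 1000 counts, the median TPM was 1.56-fold higher in replicate 1. Ratios formed within a library are free of this shift. Differences between the libraries are therefore given on counts scaled by TMM, edgeR's trimmed mean method. Genome coordinates are on mm10.

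Primary granule genes had a summed level of 114 TPM in replicate 1 and 54.5 in replicate 2 (84.4 ± 42.2), and a median of 15.9 TPM per gene. Mpo, which encodes the peroxidase that makes hypochlorous acid, was the highest of them. Its locus on chr11:87793581-87804413 (plus strand, ENSMUSG00000009350) had 18601 and 6815 counts, or 67.15 and 26.83 TPM (47.0 ± 28.5). Elane encodes neutrophil elastase and had 24.16 and 12.29 TPM (18.2 ± 8.39) from 2754 and 1369 counts. Ctsg, the gene of the chymotrypsin-like protease cathepsin G, had 15.90 and 11.10 TPM (13.5 ± 3.39) from 2025 and 1373 counts. Prtn3, the gene of proteinase 3, was lowest of all 10 and the 1 member under 10 TPM, at 6.99 and 4.30 TPM (5.64 ± 1.90) from 743 and 487 counts.

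Elane and Prtn3 are neighbours on the same strand of chromosome 10, with 3.1 kb between them. Elane spans chr10:79886247-79888215 (ENSMUSG00000020125) and Prtn3 spans chr10:79874476-79883174 (ENSMUSG00000057729). Within a library, Elane was 3.46-fold above Prtn3 in replicate 1 and 2.86-fold in replicate 2. Ctsg is on another chromosome, at chr14:56099881-56102574 (minus strand, ENSMUSG00000040314), among the genes of granzymes and mast cell proteases.

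Specific granule genes had a summed level of 289 and 146 TPM (217 ± 101), with a median of 37.4 TPM per gene. Ngp, neutrophilic granule protein, a member of the cystatin and cathelicidin superfamily, was the highest at 178.26 and 71.17 TPM (125 ± 75.7). It also had the most counts of any member, with 27278 and 10493. Camp encodes cathelicidin, the precursor of an antimicrobial peptide, and had 61.45 and 40.04 TPM (50.7 ± 15.1) from 3780 and 2520 counts. Ltf encodes the iron-binding protein lactoferrin. It had 26.92 and 21.24 TPM (24.1 ± 4.02) from 11084 and 8207 counts. Its TPM gap of 1.27-fold was the narrowest of the 10 genes, but its TMM-scaled gap (1.20-fold, higher in replicate 2) was not. Lcn2, the gene of a lipocalin that binds bacterial siderophores, had 22.00 and 13.13 TPM (17.6 ± 6.27) from 2499 and 1455 counts.

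Camp, Ngp and Ltf share chromosome 9 without being neighbours. Of these, Camp is at chr9:109847379-109849617 (minus strand, ENSMUSG00000038357), Ngp at chr9:110419747-110423012 (plus strand, ENSMUSG00000032484) and Ltf at chr9:111019271-111042767 (plus strand, ENSMUSG00000032496). The gap from Camp to Ngp is 570.1 kb and that from Ngp to Ltf 596.3 kb. Lcn2 is at chr2:32384633-32388252 (minus strand, ENSMUSG00000026822). Ngp was 2.90-fold above Camp in replicate 1 and 1.78-fold in replicate 2.

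Calprotectin genes stood above every granule gene. S100a8 (chr3:90668978-90670035, plus strand, ENSMUSG00000056054) had 556.79 and 252.62 TPM (405 ± 215) from 15652 and 8047 counts, and ranked 23 and 35 among nuclear protein-coding genes. S100a9 (chr3:90692632-90695721, minus strand, ENSMUSG00000056071) lies 22.6 kb away. It had 275.01 and 175.19 TPM (225 ± 70.6) from 13074 and 8784 counts and ranked 43 and 48. For scale, Slc4a1, the gene of the red cell anion exchanger band 3, had 692.70 and 422.92 TPM, which was 1.24-fold and 1.67-fold above S100a8. The sum of both calprotectin genes was 832 and 428 TPM (630 ± 286).

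**Figure D1:**
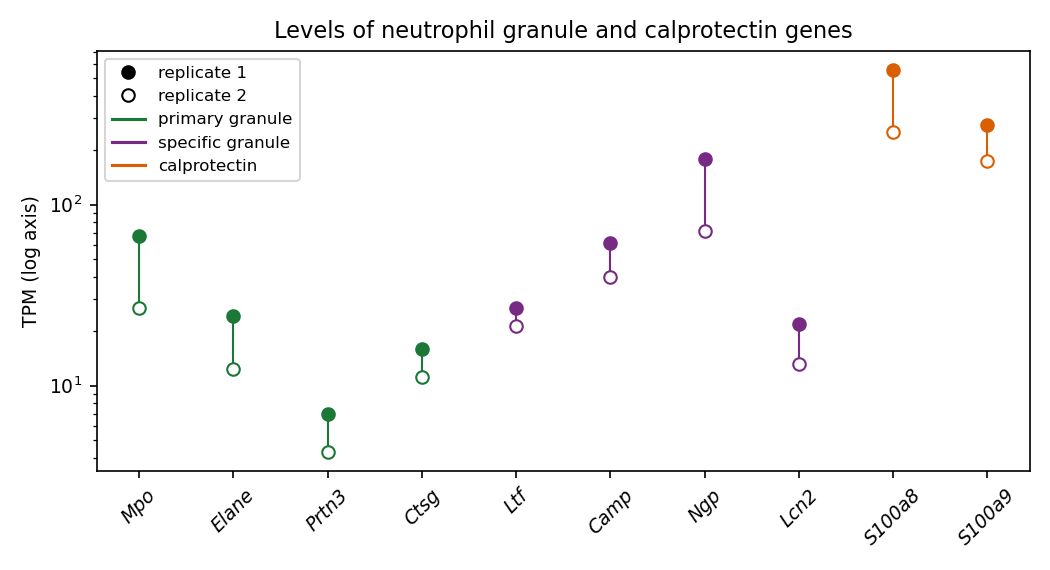
Level of each gene in TPM (log axis), with filled points for replicate 1, open points for replicate 2 and colour for the class; lines join the 2 libraries. S100a8 (556.79 and 252.62) is highest and Prtn3 (6.99 and 4.30) lowest, and replicate 1 is above replicate 2 for all 10 genes on this scale.

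By mean TPM the order was S100a8, S100a9, Ngp, Camp, Mpo, Ltf, Elane, Lcn2, Ctsg and Prtn3. Camp and Mpo changed places between the libraries, with a log2 ratio of 0.22 ± 0.50. Elane and Lcn2 did too, with a log2 ratio of 0.02 ± 0.16. The other 7 pairs of neighbours in this order kept their places in both libraries with a mean log2 ratio above its SD.

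Within each library the later classes were the higher. The log2 ratio of summed primary to summed specific granule TPM was -1.34 in replicate 1 and -1.42 in replicate 2 (-1.38 ± 0.06), so specific granule transcripts were 2.53-fold and 2.67-fold higher. The difference in sums depended on which leading genes were included. With Ngp alone left out, a choice made after the values were seen, the ratio was -0.20 ± 0.35, less than its spread. With Mpo alone left out it was -2.51. The mean of log2(TPM + 0.1) over genes, which weights all genes equally, gave -1.35 ± 0.08 with both included. The log2 ratio of calprotectin to the 8 granule genes was 1.05 and 1.10 (1.07 ± 0.04), or 2.06-fold and 2.14-fold. S100a8 exceeded S100a9 by 2.02-fold in replicate 1 and 1.44-fold in replicate 2, a log2 ratio of 0.77 ± 0.35.

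Transcript length bears on the calprotectin values, because TPM divides counts by the length left for a fragment to start in. The deposited S100a8 model is 392 bases long, which left effective lengths of 172.0 and 211.1 bases. Before length correction the calprotectin to granule ratio had the opposite sign (-1.11). That ratio sets a sum over 2 genes (28726 and 16831 counts) against a sum over 8 (68764 and 32719), so it is not a comparison per gene. S100a8 and S100a9 counts differed by a log2 ratio of 0.07 ± 0.27, less than the spread. In the later GENCODE M21 annotation the S100a8 model has 486 bases and that of Camp 758 in place of 599. If the deposited counts are kept and reads are not recounted, M21 lengths multiply the S100a8 level by 0.65 and 0.69. For Camp the factors are 0.70 and 0.72. The calprotectin to granule ratio was then 0.85, and the S100a8 to S100a9 ratio was 0.19 ± 0.28.

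Between the libraries the 10 genes split evenly once scaled by TMM, with 5 higher in replicate 1 and 5 in replicate 2. No member differed by 2-fold or more either way. Of the 10403 genes averaging at least 50 counts, 10.8% were that much higher in replicate 1 and 10.3% in replicate 2. These include genes with fewer counts than any member, and the 2-fold share at matched counts was not computed. Mpo had the widest gap, with 304 and 181 TMM-scaled CPM (log2 0.75, 1.68-fold), and Ngp was next with 446 and 278 (log2 0.68, 1.60-fold). These 2 genes were the members 1.5-fold or more higher in replicate 1, a gap that 9.66% of the 5133 genes averaging at least 500 counts had. On deposited TPM, 3 members (Mpo, Ngp and S100a8) were 2-fold or more higher in replicate 1, but so were 31.8% of the 10403 genes. In replicate 2, Ltf was higher by the most, with a log2 ratio of -0.27. The median absolute log2 ratio was 0.20 over the members and 0.25 over the 5133 genes.

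Mpo and Ngp, of different granule classes, had nearly the same ratio between the libraries. Ngp was 2.65-fold above Mpo in each library, a log2 ratio of 1.41 in both. The remaining primary granule genes lay on either side of 0, with log2 ratios of 0.31 for Elane, -0.09 for Prtn3 and -0.14 for Ctsg. The specific granule genes Camp and Lcn2 had -0.11 and 0.08, and the calprotectin genes had 0.26 for S100a8 and -0.13 for S100a9. None of the 3 classes had all its genes higher in the same library.

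**Figure D2:**
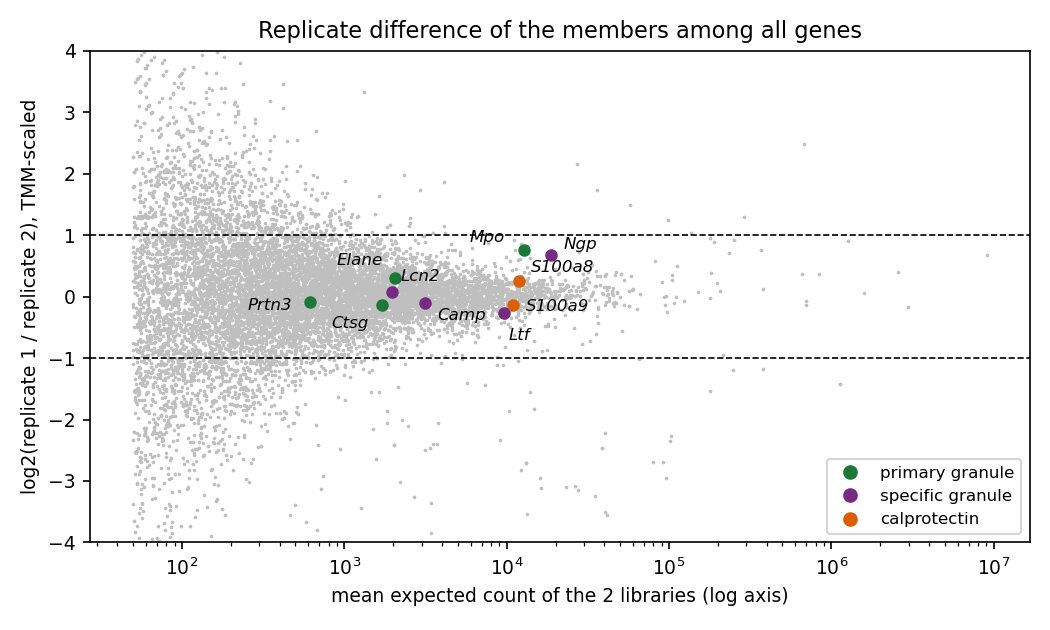
Log2 ratio of replicate 1 to replicate 2 on TMM-scaled counts against mean expected count (log axis) for 10179 genes averaging at least 50 counts (grey; 224 more lie beyond the axis limits of 4 either way) and the 10 members (coloured by class); dashed lines mark 2-fold. All members lie inside the dashed lines, with Mpo (0.75) and Ngp (0.68) nearest to the upper one.

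Mpo, Prtn3, Lcn2 and S100a9 had several annotated transcripts in the deposited tables, and every other member had 1. The main Mpo transcript was Mpo-203 (2409 bases, 14 exons), which held 63.86% and 64.26% of Mpo TPM. Mpo-205, a model of 640 bases and 2 exons from the 3′ part of the gene, held 29.13% and 31.02% of TPM but 7.2% and 8.4% of Mpo counts. Mpo-201 held 7.0% and 4.15%. It has the same coding sequence as Mpo-203 and differs from it in the first exon, which is chr11:87793581-87794075 in Mpo-201 and chr11:87794209-87794362 in Mpo-203. The shares of Mpo-203 and Mpo-205 were close in the 2 libraries, while Mpo-201 had 31.7 and 11.5 TMM-scaled CPM (2.77-fold higher in replicate 1).

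Prtn3 was the member whose transcripts changed places. The coding transcript Prtn3-201 held 36.38% of Prtn3 TPM in replicate 1 and 63.65% in replicate 2, with levels of 2.54 and 2.74 TPM. Their deposited credibility intervals, 2.21 to 2.86 and 2.33 to 3.16, overlapped, but they are on TPM, whose scale is shifted between the libraries. Prtn3-204, annotated as a transcript with a retained intron, held 63.62% and 33.76%, with levels of 4.45 TPM (interval 3.91 to 4.92) and 1.45 TPM (interval 0.94 to 1.90) that did not overlap. On TMM-scaled counts, Prtn3-201 had 5.45 CPM in replicate 1 and 9.24 in replicate 2 (1.70-fold lower in replicate 1), and Prtn3-204 had 6.69 and 3.51 (1.90-fold higher). The transcripts thus differed in opposite directions, while the gene as a whole had a log2 ratio of -0.09. These intervals cover the assignment of reads within a library, with no replicate behind either share.

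S100a9-201 held 82.40% and 69.89% of S100a9 TPM, and S100a9-202 held 17.60% and 30.11%. Both encode the same protein and differ by a few bases at exon ends, so few reads tell them apart. S100a9-201 had 226.61 and 122.44 TPM and S100a9-202 had 48.40 and 52.75. The intervals of S100a9-202 overlapped, but they too are on the shifted TPM scale. On TMM-scaled counts S100a9-201 had 175 and 162 CPM, and S100a9-202 had 38.3 and 71.2 (1.86-fold lower in replicate 1). Lcn2-201 held 99.43% and 97.12% of Lcn2.

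**Figure D3:**
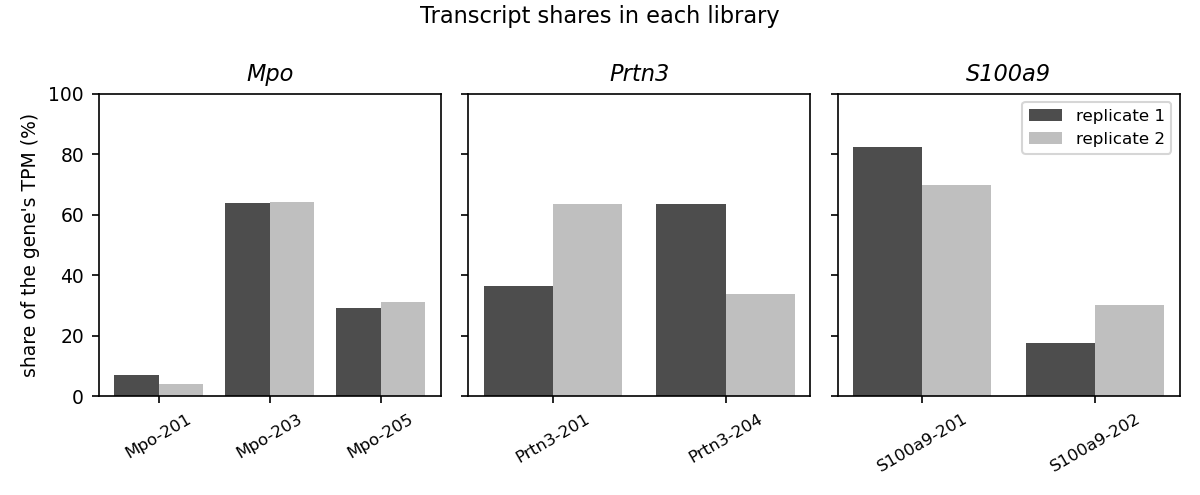
Share of the gene's TPM (%) held by each transcript with at least 5% in either library, for Mpo, Prtn3 and S100a9, with dark bars for replicate 1 and light bars for replicate 2. Prtn3-201 and Prtn3-204 change places (36.38% and 63.65% against 63.62% and 33.76%), while the Mpo-203 bars are level (63.86% and 64.26%).

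Levels of the protein-coding genes beside the members on the chromosome varied by locus. Of 8 protein-coding genes within 100 kb of Mpo, Supt4a (4.48 ± 1.22 TPM), which encodes a transcription elongation factor, was the 1 that reached 1 TPM in each library, and 4 had 0 counts in both. Over all nuclear protein-coding genes 42.8% had 0 counts in both libraries, so the share beside Mpo was near the general one. Ctsg had 9 such neighbours, of which 7 had 0 counts in both libraries. These included the granzyme genes Gzmd and Gzme and the mast cell protease gene Mcpt4, named after their values were seen. Mcpt8, a basophil protease gene 14.6 kb from Ctsg, was at 5.47 ± 1.25 TPM. Ngp had 5 neighbours and none reached 1 TPM in both, a level that 23.9% of all nuclear protein-coding genes reached.

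Elane and Prtn3 lie in a denser stretch, where Ptbp1 (9.69 ± 3.17 TPM), a splicing repressor, R3hdm4 (3.56 ± 1.56) and Tmem259 (5.29 ± 1.80) also reached 1 TPM in each library. Prtn3 overlaps Plppr3 on the opposite strand, which had 48 counts in each library. Mpo overlaps the antisense gene Gm11505, with 1 and 51 counts. Whether the counting used strand is not given in the sources used here, so reads in these overlaps are uncertain. Beside Lcn2, Ciz1 (10.2 ± 0.0424 TPM), Swi5 (8.93 ± 2.02), Golga2 (4.97 ± 0.219) and Slc25a25 (1.83 ± 0.969) passed that level. Ccrl2 (2.95 ± 1.22) and Lrrfip2 (2.38 ± 0.686) did so beside Ltf, and the cell cycle phosphatase gene Cdc25a (2.59 ± 1.51) beside Camp.

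S100a8 and S100a9 sit in a cluster of S100 genes, small calcium-binding proteins, and were far above the rest of that family. Of 14 other S100 genes, 4 reached 1 TPM in each library, 0 reached 10 and 7 had 0 counts in both. Over all nuclear protein-coding genes these shares were 23.9%, 4.79% and 42.8%, so the rest of the family was near the general shares. S100a10 (6.07 ± 0.636 TPM), S100a4 (3.79 ± 1.69) and S100a6 (3.77 ± 2.36) were the highest. The 7 with 0 counts were S100a3, S100a5, S100a14, S100a16, S100b, S100g and S100z, for which 3 counts would equal between 0.015 and 0.206 TPM. S100a3 and S100a5 are within 100 kb of S100a8, as are S100a4 and S100a6.

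Lists of other neutrophil genes had lower medians than each of the 3 member classes. Of 7 further primary granule genes, 6 reached 1 TPM in each library and 2 reached 10, with a median of 4.24 TPM. Lyz2, the gene of lysozyme, had 103.41 and 62.36 TPM (82.9 ± 29.0), which was 1.54-fold and 2.32-fold above Mpo. It is also expressed by monocytes and macrophages. Srgn, the proteoglycan on which granule proteins are packed, was at 23.2 ± 16.5 TPM, and the protease inhibitor gene Serpinb1a at 7.42 ± 4.50.

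Of 13 further specific and gelatinase granule genes, 10 reached 1 TPM in each library and 1 reached 10, with a median of 3.72 TPM. Chil3, which encodes a chitinase-like protein, led with 33.70 and 20.17 TPM (26.9 ± 9.57). Cybb, the catalytic subunit of the phagocyte oxidase, was at 6.68 ± 4.68, and haptoglobin (Hp, 6.38 ± 1.51) and ficolin B (Fcnb, 6.38 ± 2.79) were level with each other. Of 14 genes of late neutrophils, 5 reached 1 TPM in each library, with a median of 1.05 TPM. Retnlg (14.8 ± 6.33) was the 1 that reached 10 in each. Wfdc21 (11.2 ± 2.85) and the chemokine gene Ccl6 (2.61 ± 1.02) followed.

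Stfa3, a stefin gene, had 0 counts in both libraries, where 3 counts would equal 0.096 and 0.086 TPM. Ly6g, whose protein marks mature mouse neutrophils, had 1 count in replicate 1 and 125 in replicate 2 (0.05 and 1.09 TPM), and it is named after its values were seen. Stefin and Ly6 genes have close copies that share reads, so their values are uncertain. The median of these lists went from 4.24 TPM for primary granule to 1.05 TPM for late genes. Among the members the later classes were the higher in TPM. There, the primary to specific difference rested on Ngp, and the calprotectin excess rested on length correction.

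Transcription factors of granulocytes had a lower median than each of the 3 member classes. Of 9 listed regulators, 4 reached 1 TPM in each library and 0 reached 10, with a median of 1.19 TPM. Runx1 (6.38 ± 2.20) and Myb (5.13 ± 2.82), which progenitors of several lineages express, were the highest. Spi1, the PU.1 gene, had 4.27 and 1.72 TPM (2.99 ± 1.80), which was 4.60-fold and 5.88-fold below Gata1, the erythroid master regulator. Mpo itself was 3.42-fold and 2.65-fold above Gata1. Cebpa, Cebpe and Gfi1, named after their values were seen, had 0.04 and 0.10, 1.66 and 0.73, and 0.70 and 0.49 TPM. Cebpa rested on 14 and 37 counts.

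**Figure D4:**
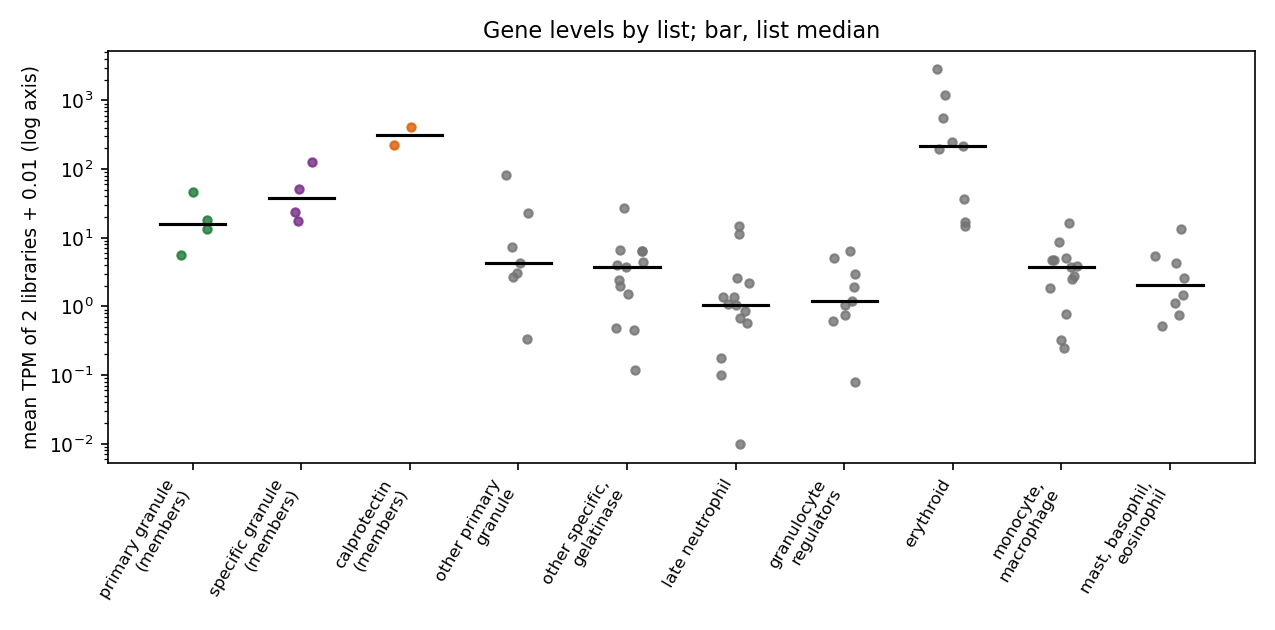
Mean TPM over the 2 libraries plus 0.01 (log axis) of each gene in the 3 member classes (coloured) and in lists of other neutrophil genes, regulators and markers of other cell types (grey); bars are list medians. The erythroid markers (median 215 TPM) and the calprotectin genes are highest, the primary and specific granule members have medians of 15.9 and 37.4, and the late neutrophil list has 1.05.

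The labelled cell type had its markers. All 9 erythroid markers reached 10 TPM in each library, with a summed level of 7426 and 3177 TPM and a median of 215 TPM. Markers of other marrow cells were read too, and each of their lists summed to less than the 4 primary granule genes. Of 13 monocyte and macrophage markers, 10 reached 1 TPM in each library and 0 reached 10, with a summed level of 73.1 and 37.9 TPM. Of 8 mast cell, basophil and eosinophil markers, 4 reached 1 TPM in each library and 1 reached 10, with a sum of 36.8 and 22.4 TPM. Of 7 B cell markers, 4 reached 1 TPM and 1 reached 10, with a sum of 38.0 and 20.9 TPM. On TPM rescaled to nuclear protein-coding genes, 10, 5 and 4 markers of these lists, in that order, reached 10 in each library. On that scale 5353 of all 21461 nuclear protein-coding genes did so, against 1028 on deposited TPM. Megakaryocyte markers summed to 13.8 and 4.24 TPM, T and NK cell markers to 5.11 and 2.51, and stem and early progenitor markers to 1.87 and 1.22. None of these markers had 0 counts in both libraries. The part of such cells in the granule and calprotectin values was not tested.

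The genes closest in level to Mpo and S100a8, by the distance between log2 TPM values over the 2 libraries, were of other kinds. Nearest to Mpo were Atp2b4 (65.47 and 27.69 TPM), a plasma membrane calcium pump gene, Rps14 (70.45 and 26.35), a ribosomal protein gene, and Ankle1 (63.13 and 26.91), a nuclease gene. Nearest to S100a8 were the histone genes Hist1h2bg (593.02 and 296.53), Hist1h2bk (456.55 and 293.19) and Hist1h2ag (547.40 and 341.42), which have close copies that can share reads. With 2 libraries this ranks genes by level only.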

How the data were processed

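Per the file headers, the authors' deposited gene and transcript tables (mm10) hold expected counts, TPM, posterior mean TPM, credibility bounds for TPM and each transcript's percent of its gene. The deposited notes name GENCODE M4. Which aligner and quantifier were used is not given in the sources used here. Values were taken from these tables for 2 libraries in 1 group, so no p-value was computed. Of 69691 rows, 26345 that are not Ensembl genes were left out. GENCODE M21 gave names and coordinates for 42462 of the remaining 43346 rows, and 884 did not match. Genes of the mitochondrial chromosome are outside the nuclear protein-coding set. RefSeq promoter windows (GRCm38.p6) matched all 10 genes.

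For scaling, the authors' expected counts were rounded and passed to edgeR 4.0.16 (TMM, effective sizes 61216283 and 37709101) and DESeq2 1.42.0 (size factors, as an alternative) in R 4.3.3. The members' expected counts were whole as deposited, within 0.005. Log2 ratios between libraries used a prior count of 0.5. Python 3.11.15, numpy 2.4.6, pandas 2.3.3 and matplotlib 3.10.9 did the rest. The scripts were tested on simulated data. The lowest member count in either library was 487.

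Members, gene lists, comparisons and alternatives were chosen with earlier results of these data known, although the rule for the members is a list of symbols with no threshold. The text names every member, the 3 highest genes of each neutrophil list and those at 0 in both libraries, neighbours within 100 kb at 1 TPM or more in both, transcripts with at least 5% of a member's TPM, and the 3 genes nearest in level to Mpo and S100a8. Alternatives covered posterior mean TPM, TPM rescaled to nuclear protein-coding genes, counts without length correction, means of log2(TPM + 0.1), other minimums and prior counts, DESeq2 size factors and each replicate alone.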

Additional observations from a re-analysis of the deposited data

How the results depend on the processing

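Of the alternatives tried for the 5 main results, 19 left the value within its spread between libraries or within 1.5 times the count. Some of these could not come out otherwise. With 2 libraries, the ratio of each replicate alone always lies within the SD of their mean. Dropping the filter on low counts could not change the 2-fold count, since every member passed that filter. Counts without length correction gave -1.03 for the log2 ratio of primary to specific granule genes, -1.11 for calprotectin to granule genes, which changed sign, and 0.07 for S100a8 to S100a9. The S100a8 model enters the ratios that hold calprotectin, and the Camp model those that hold the specific granule genes. GENCODE M21 lengths applied to the deposited counts, a choice made after seeing the data, gave -1.25, 0.85 and 0.19 for the same 3 ratios. The mean of log2(TPM + 0.1) over genes gave 3.55 for calprotectin to granule genes, since it weights the low granule genes equally. Also chosen after seeing the data, leaving out Mpo gave -2.51 for primary to specific granule genes and leaving out Ngp gave -0.20. Deposited TPM put 3 members at 2-fold or more between libraries in place of 0. The number of members at or above the TPM minimum in both libraries was 9 at 10 TPM and 6 at 20 TPM. After rescaling to the nuclear protein-coding set, all 10 members reached a level of 10. The same minimum is looser after rescaling, since 5353 of the 21461 genes in that set then passed it, and 1028 passed before. How many genes of the set reached 20 TPM was not computed. No paired analysis was possible because the series has 1 group. With 2 libraries, no spread can be estimated for either alone.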
